A study of Mus musculus with 6 samples.

Results

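Oxidative phosphorylation genes were described in sorted YFP-positive cells of the mouse subventricular zone (SVZ), the stem cell niche that lines the lateral ventricles of the adult brain. They were chosen by symbol, as rows named mt-Nd, mt-Co, mt-Cytb, mt-Atp, Ndufa, b, c, s or v, Sdha to Sdhd, Uqcr, Cox4 to Cox8 or Atp5, with a mean normalized count of at least 100 over the 6 samples. Of 125 matching symbols among the 55487 rows of the table, 97 met the mean. These were 77 subunits encoded in the nucleus, 9 of the 13 subunits encoded by mitochondrial DNA, and 11 genes not counted as subunits. The 11 were 8 Ndufaf assembly factors, Cox7a2l and 2 symbols ending in -ps, which were set apart by symbol. The 28 symbols below the mean included 12 of the 14 with -ps, and 5 of the 28 were at 0 in all samples.

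TKO mice carried Rb(F/F), p107(-/-) and p130(F/F), and THC mice carried Rb(F/+), p107(+/-) and p130(F/+), so that the control mice were also heterozygous at all of these loci. Mice of both genotypes carried a tamoxifen-inducible Cre driven by Nestin sequence and a YFP reporter at Rosa26, on a mixed C57BL/6 and Sv/129 background. Mice aged 6 to 10 weeks received 200 mg/kg tamoxifen daily by gavage for 5 days, and 10 days after the last dose the SVZ was dissected. Each genotype had 3 samples, 1 in a February and 2 in a November batch, and every sample pooled cells of several mice (200000 YFP-positive cells or more). The proteins encoded at these loci, pRb, p107 and p130, keep cell-cycle genes low by binding E2F transcription factors. Rbl1, which encodes p107, was at normalized counts of 42.0, 18.3 and 14.5 in TKO samples and 520, 497 and 646 in THC samples. Rb1 was at 3350, 3573 and 2877 in TKO samples and 2022, 1631 and 1895 in THC samples, and Rbl2, which encodes p130, at 931, 976 and 912 in TKO samples and 1250, 1027 and 847 in THC samples. Counts over a whole gene do not check the loss of a part of it.

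Oxidative phosphorylation takes place in the inner mitochondrial membrane. Complexes I (NADH dehydrogenase), III and IV (cytochrome c oxidase) pump protons as electrons pass to oxygen, complex II (succinate dehydrogenase) feeds electrons in from succinate, and complex V (ATP synthase) uses the proton gradient to make ATP. Complexes I, III, IV and V are built from subunits of both genomes, complex II from nuclear subunits alone. Adult neural stem cells are known to rely more on oxidative phosphorylation as they leave quiescence and form neurons.

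The library totals, as inferred from the steps of the normalized counts, were 15536084 to 16961817 reads. All 6 proliferation markers were higher in TKO samples (median log2 change 1.43, summed level 62395 to 71719 in TKO against 19901 to 30047 in THC samples), whereas markers of other cell types that the sort could hold mostly were lower. The 6 oligodendrocyte markers were all lower (sum 12059 to 21383 in TKO, 74698 to 84721 in THC samples), as were 5 of 6 neuron markers tested (sum 4117 to 4934 in TKO, 7074 to 10113 in THC samples), 5 of 7 endothelial and mural markers (3276 to 5061 in TKO, 7378 to 12855 in THC samples), 3 of 7 astrocyte and quiescent stem cell markers (119426 to 152146 in TKO, 148930 to 260775 in THC samples) and 3 of 6 neuroblast markers (14939 to 21128 in TKO, 20844 to 29637 in THC samples). Among 6 ependymal markers 1 was higher and 2 were lower. Their sum was 5240, 4018 and 5086 in TKO 1 to 3, and 3452, 10096 and 8918 in THC 1 to 3, so that the batches differed in sign. Of 6 microglia markers 2 were higher, with sums of 3540, 783 and 460 in TKO 1 to 3, and 2068, 437 and 221 in THC 1 to 3. In both genotypes the February library, number 1, had the highest microglia sum. None of these markers was at 0 in all samples. In bulk samples, fewer cells of a type and less RNA per cell cannot be told apart, and the part of cell composition in the results that follow was not tested.

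Most oxidative phosphorylation genes lay close together in TKO and THC cells. Tested with limma on log2(normalized count + 1) with batch as a covariate, 3 of the 97 members rose and 7 fell at a Benjamini-Hochberg adjusted p under 0.05. That was 10.3% of members, against 27.9% of the 17278 genes tested (14.3% higher and 13.6% lower) and 32.9% of the 11905 genes with a mean of at least 100. The median log2 change was 0.00 over the members and -0.01 over those 11905 genes, and the median size of the change was 0.14 and 0.30. The change was within 0.5 log2 units for 94 members (96.9%), against 69.0% of the genes with a mean of at least 100. The 95% confidence interval of the change lay within 2-fold in both directions for 94 of 97 members, the others being Cox6b2, Ndufa12-ps and mt-Atp6, and within 1.5-fold for 72. TKO and THC samples did not overlap for 16 members (16.5%), against 38.9% of all genes tested.

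**Figure D1:**
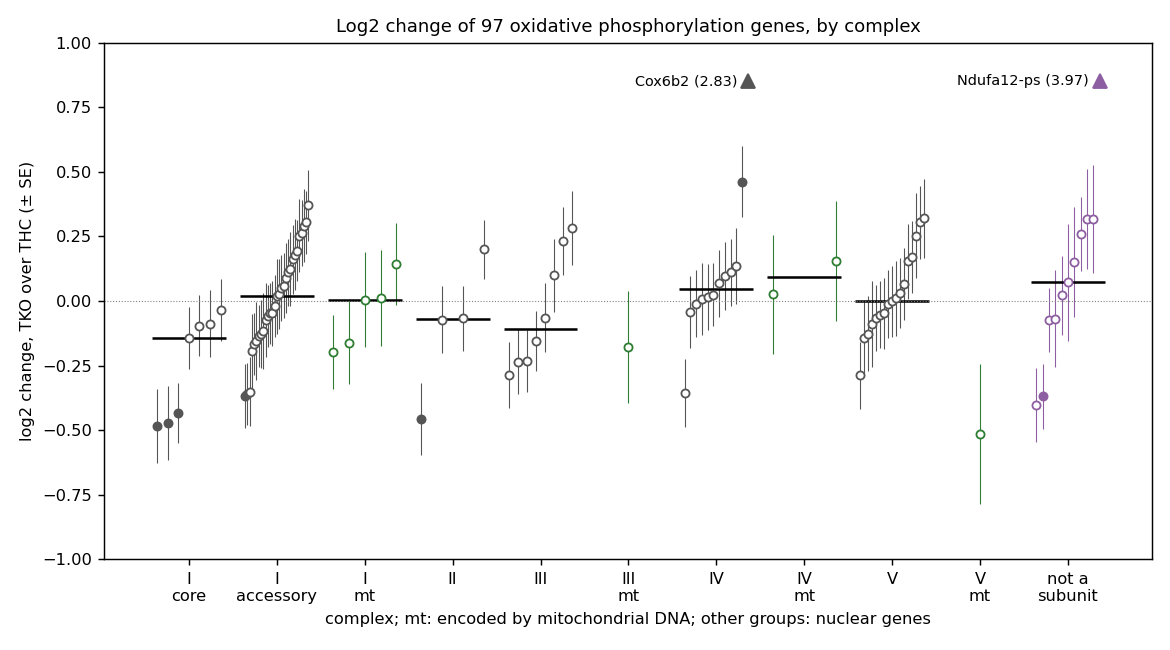
Log2 change, TKO over THC, with its standard error (vertical axis) for each of the 97 members, grouped along the horizontal axis by complex and genome. Grey points are nuclear subunits, green points mitochondrially encoded subunits and purple points genes not counted as subunits. Filled points passed an adjusted p of 0.05, black lines are medians of groups of 2 or more, and triangles mark Cox6b2 (2.83) and Ndufa12-ps (3.97), which lie beyond the axis. Most points lie within 0.5 of 0, and the 3 filled points of the complex I core lie at the lower end of their group.

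Single libraries stood apart within this gene group. TKO 2 was the highest of the 6 libraries for 52 of the 77 nuclear subunits (67.5%), against 21.0% of genes with a mean of at least 100. TKO 1 was the lowest for 41 of the 77, against 1707 of those 11905 genes. THC 1 was the lowest for 23 of the 77, against 2438 of the 11905. The summed normalized count of the 77 nuclear subunits was 169948, 216260 and 180815 in TKO 1 to 3, and 178572, 197368 and 205888 in THC 1 to 3. The difference of the TKO mean from the THC mean was -2.54%, and the TKO libraries covered the whole range of the THC libraries. Without TKO 2, 2 members rose and 5 fell, and the median log2 change of the nuclear subunits was -0.11, against -0.01 with it.

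The 9 mitochondrially encoded members gave no call in either direction with limma, 0 at an unadjusted p under 0.05, and none in the authors' deposited table. Their median log2 change was 0.01, with a range of -0.51 to 0.16, beside -0.01 over the 77 nuclear subunits. Their summed normalized count was 123041, 117366 and 154824 in TKO samples, and 163992, 124453 and 123691 in THC samples. The ratio of the mitochondrial to the nuclear sum was 0.724, 0.543 and 0.856 in TKO samples and 0.918, 0.631 and 0.601 in THC samples, so that the genotypes overlapped. The 2 batches gave different signs for the mitochondrial genes, with a median log2 difference of -0.43 in February, where each genotype has 1 library, and 0.18 in November. The same medians over the nuclear subunits were -0.05 and 0.00. THC 1 was the highest library for 6 of the 9 genes, and TKO 3 for the other 3.

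By complex, the mitochondrial subunits were as follows. For complex I, mt-Nd1, a membrane subunit of the proton-pumping arm, had 20947, 18715 and 23246 normalized counts in TKO samples and 26495, 17961 and 18933 in THC samples (log2 change 0.01, SE 0.18, 95% interval -0.40 to 0.41). The other 4 complex I members (mt-Nd2, mt-Nd4, mt-Nd5 and mt-Nd6) had log2 changes of -0.20 to 0.14. For complex III, mt-Cytb, the cytochrome b that carries both quinone sites, had 33633, 33175 and 42000 counts in TKO samples and 50168, 36851 and 36781 in THC samples (log2 change -0.18, SE 0.22), a difference of -0.58 in February and 0.02 in November. For complex IV, mt-Co1, the catalytic subunit with the heme-copper centre, had 45744, 41754 and 58501 counts in TKO samples and 56356, 43918 and 42710 in THC samples (log2 change 0.03, SE 0.23). In each of these genes the TKO and THC samples overlapped.

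The mitochondrial members split in level along their genome. The 7 genes mt-Nd1, mt-Nd2, mt-Co1, mt-Nd4, mt-Nd5, mt-Nd6 and mt-Cytb had mean levels of 4541 (mt-Nd6) to 33888 (mt-Cytb) normalized counts per kb of exon, whereas the 6 genes that follow each other from mt-Co2 to mt-Nd4l had 8.09 to 218. By mean normalized count, of those 6, mt-Co3 (171) and mt-Atp6 (108) were the ones that met the rule, and mt-Co2 (90.2), mt-Atp8 (4.77), mt-Nd4l (3.04) and mt-Nd3 (2.82) fell below the mean of 100. For 5 of the 6, nearly all stretches of 50 bases also occur in a nuclear gene's transcript in GENCODE M21. The share was 100% for mt-Co2 (Gm28661), 99.9% for mt-Co3 (Gm28437), 99.5% for mt-Atp6 (Gm10925), 98.8% for mt-Nd4l (Gm10222) and 98.0% for mt-Nd3 (Gm28438). It was 0% for mt-Atp8, which overlaps mt-Atp6 on the same strand. Among the 7 abundant genes it was 62.2% for mt-Nd4, 51.1% for mt-Co1, 8.19% for mt-Nd2, 7.61% for mt-Nd5, and 0% for mt-Nd1, mt-Nd6 and mt-Cytb.

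The copies themselves also had counts, with mean normalized counts of 447 for Gm28437, 181 for Gm10925 and 97.8 for Gm28661. How reads that match several places were counted is not given in the sources used here, and the part of this in the low levels was not tested. mt-Atp6, the proton channel subunit of complex V, had 80.0, 70.9 and 118 counts in TKO samples and 139, 110 and 129 in THC samples (log2 change -0.51, SE 0.27, adjusted p = 0.187, limma). It was the mitochondrial member with the largest change in size and the widest interval (-1.10 to 0.07), and its TKO and THC samples overlapped. mt-Co3 had 190, 143 and 200 counts in TKO samples and 231, 142 and 120 in THC samples (log2 change 0.16, SE 0.23). Over the 7 members with under 95% shared stretches the median log2 change was 0.01, the same as over all 9. mt-Nd6 lies on the opposite strand to the others, and the library kit does not keep the strand.

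**Figure D2:**
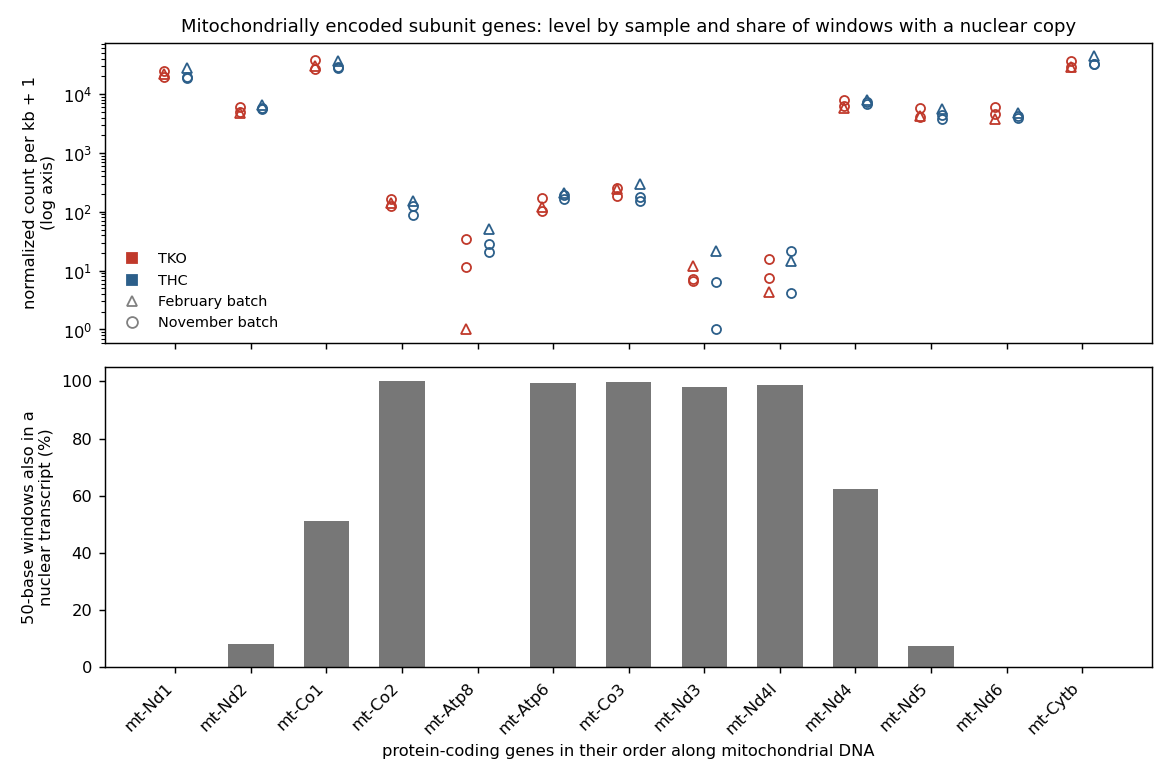
Top, normalized count per kb of exon plus 1 (log axis) of the 13 protein-coding genes of mitochondrial DNA in their order along it, by sample, with TKO left of THC; bottom, percentage of 50-base stretches that also occur in a transcript of a nuclear gene. The 6 genes from mt-Co2 to mt-Nd4l lie well below the other 7 in both genotypes, and 5 of them have 98.0% to 100% of their stretches in a nuclear transcript.

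The median level of the 7 abundant mitochondrial genes was 6957 normalized counts per kb of exon. Nuclear subunits ran from 75.5 (Ndufb2) to 4858 (Atp5b, the catalytic beta subunit of ATP synthase), with a median of 1218. The length joined all annotated exons of a gene, so levels per kb depend on the annotation. It was 5628 bases for Ndufb2, beside a median of 1718 over the nuclear subunits. The median level per kb of nuclear subunits was 930 for complex I, 1984 for complex II, 1753 for complex III, 2026 for complex IV and 1236 for complex V. None of the 77 nuclear subunits shared 50% or more of its 50-base stretches with another gene, and 28 shared none.

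Complex I had 36 nuclear members, of which 0 rose and 5 fell (13.9%), a share close to the 13.6% of all genes tested that fell. At an unadjusted p under 0.05 there were 8. The 7 nuclear core subunits, which form the arm that passes electrons from NADH to quinone, had negative log2 changes in 7 of 7 cases (median -0.14), and 3 of them fell. These 3 are 42.9% of a group of 7. Beside them, 1963 of the 11905 genes with a mean of at least 100 fell, and 13.6% of all genes tested. The group is small, and nothing particular to the core is read from the count. All 7 were negative under both other scalings, and 6 of 7 without TKO 3. The log2 changes of the 29 accessory subunits were positive in 15 cases and negative in 14 (median 0.02), and 2 of them fell. The summed normalized count of the 7 core subunits was 14197, 16101 and 14065 in TKO samples and 16750, 17233 and 17054 in THC samples, with every TKO sample below every THC sample. The sum of the 29 accessory subunits was 34293, 49057 and 40730 in TKO samples and 36071, 42111 and 43994 in THC samples, which overlapped. The ratio of the core to the accessory sum was 0.414, 0.328 and 0.345 in TKO samples, and 0.464, 0.409 and 0.387 in THC samples, and overlapped through TKO 1.

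Ndufs1, the largest iron-sulfur subunit of complex I (chr1:63143596-63176833, GRCm38), had 2705, 2503 and 2327 normalized counts in TKO samples and 3786, 3317 and 3092 in THC samples. All TKO samples lay below all THC samples. Its log2 change was -0.43 (SE 0.12, limma adjusted p = 0.0161). Ndufs8, which carries a pair of iron-sulfur clusters near the quinone site (chr19:3908863-3912774), had 861, 1155 and 850 counts in TKO samples and 1249, 1464 and 1268 in THC samples (log2 change -0.48, SE 0.14, adjusted p = 0.0244). Ndufs7, which holds the last cluster before quinone (chr10:80249121-80256794), had 673, 932 and 816 counts in TKO samples and 1101, 1243 and 998 in THC samples (log2 change -0.47, SE 0.14, adjusted p = 0.0280). Both were also without overlap between the genotypes. Of the other core subunits, Ndufs3, Ndufv1 and Ndufv2 had log2 changes of -0.10 to -0.03.

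Among accessory subunits, Ndufv3 had 909, 1136 and 1006 counts in TKO samples and 1230, 1417 and 1279 in THC samples (log2 change -0.37, adjusted p = 0.0442, limma). Ndufb10 had 1246, 1596 and 1340 counts in TKO samples and 1593, 1891 and 1871 in THC samples (log2 change -0.36, adjusted p = 0.0446), and its groups overlapped between TKO 2 and THC 1. Among those that missed the threshold were Ndufs6 (log2 change 0.37, adjusted p = 0.0646), Ndufa8 (-0.35, 0.0715) and Ndufa1 (0.30, 0.0808). Of the 8 Ndufaf factors, which help assemble complex I, 1 fell (12.5%, beside 13.6% of all genes tested) and none rose. This was Ndufaf7, a methyltransferase, with 873, 836 and 750 counts in TKO samples and 1031, 1052 and 1088 in THC samples (log2 change -0.37, SE 0.13, adjusted p = 0.0458).

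**Figure D3:**
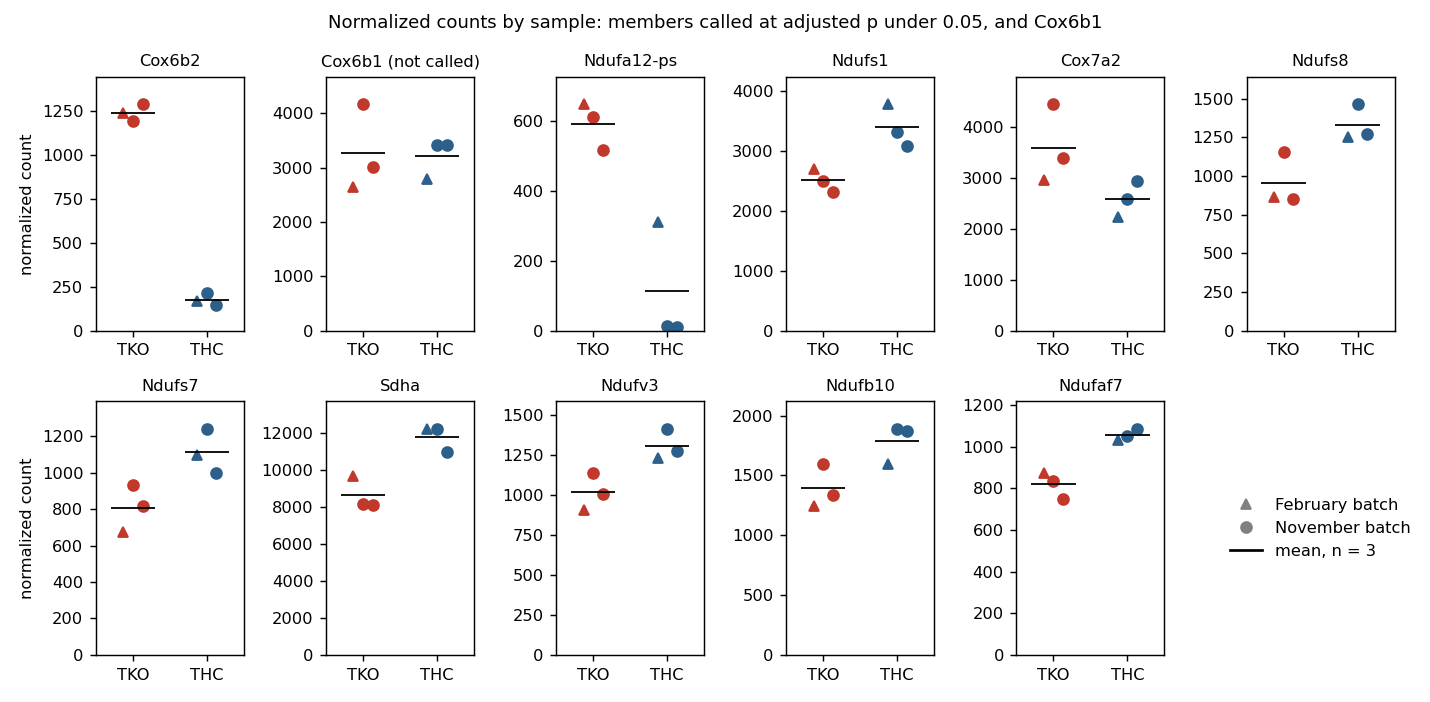
Normalized counts (vertical axes from 0) by sample for the 10 members called at an adjusted p under 0.05 and for Cox6b1, with TKO left of THC in each panel; triangles are the February and circles the November batch, and lines are means of 3 samples. Cox6b2 lies at 1193 to 1289 in TKO and 145 to 212 in THC samples, and the other nuclear subunits differ by less than 1.5-fold.

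Complex II, which also belongs to the tricarboxylic acid cycle, had 4 members and 1 that fell. Over all genes tested 13.6% fell, and nothing is read from a count of 1. Sdha, its flavoprotein (chr13:74322254-74350280), had 9642, 8129 and 8075 normalized counts in TKO samples and 12201, 12226 and 10961 in THC samples. The groups did not overlap, and the log2 change was -0.46 (SE 0.14, limma adjusted p = 0.0295). Sdhb, the iron-sulfur subunit, had 3063, 4157 and 3429 counts in TKO samples and 3536, 3719 and 3853 in THC samples (log2 change -0.07). Sdhc, a membrane anchor, had 1831, 2074 and 1672 counts in TKO samples and 1845, 1986 and 1994 in THC samples (log2 change -0.07). Sdhd, the other anchor, had 2948, 3242 and 3079 counts in TKO samples and 2551, 2749 and 2771 in THC samples, without overlap (log2 change 0.20, SE 0.12, adjusted p = 0.230). The subunits of this complex therefore did not all have the same sign, and its summed count (17483, 17603 and 16254 in TKO samples, 20133, 20680 and 19579 in THC samples) was dominated by Sdha.

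The calls of the 7 falls changed with single libraries. Without TKO 1, THC 1 or TKO 3, or with the 4 November samples alone, 0 members fell at the threshold, while without THC 2 the number was 1 and without THC 3 it was 4. The estimates moved less than the calls, but not every alternative could move them. For the complex I core, the median log2 change was -0.14 in the main fit, with no filter, without the batch term and with the replicate block. It was -0.20 without TKO 1, without THC 1 and with the November samples alone, where the estimate came from November samples only. Over the 14 alternatives the log2 change was -0.48 to -0.41 for Ndufs1, -0.62 to -0.37 for Ndufs8, -0.60 to -0.35 for Ndufs7 and -0.51 to -0.39 for Sdha.

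Complex III gave no call among its 8 nuclear members, with 1 at an unadjusted p under 0.05 and none in the authors' deposited table. Uqcrc1, a subunit on the matrix side, had 4415, 4593 and 4051 normalized counts in TKO samples and 5353, 5634 and 4948 in THC samples, without overlap (log2 change -0.29, SE 0.13, adjusted p = 0.118, limma). Uqcrfs1, the Rieske iron-sulfur protein, had 2092, 2456 and 2297 counts in TKO samples and 2778, 2538 and 2718 in THC samples, also without overlap (log2 change -0.23, adjusted p = 0.183). Uqcrb had 1792, 2728 and 2170 counts in TKO samples and 1498, 1726 and 2275 in THC samples (log2 change 0.28, adjusted p = 0.168). The median over the 8 was -0.11, beside -0.18 for mt-Cytb. Cox7a2l, which joins complexes III and IV into supercomplexes, had a log2 change of -0.07 (adjusted p = 0.710).

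Complex IV had the largest difference of any subunit. Its 12 nuclear members included 2 that rose (16.7%, close to the 14.3% of all genes tested), Cox6b2 and Cox7a2, and none that fell. Cox6b2 encodes an isoform of subunit VIb known mainly from testis, and Cox6b1 the isoform found in most tissues. Cox6b2 (chr7:4751792-4753094) had 1239, 1193 and 1289 normalized counts in TKO samples and 170, 212 and 145 in THC samples. Every TKO sample was far above every THC sample in both batches. The log2 change was 2.83 (SE 0.17, limma adjusted p = 1.05e-06), a 7.09-fold difference. The February difference was 2.86 and the November difference 2.81. It passed the threshold under all 14 alternatives, with a log2 change of 2.67 to 2.99.

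Cox6b1 had 2639, 4164 and 3012 counts in TKO samples and 2792, 3424 and 3408 in THC samples (log2 change 0.01, 95% interval -0.30 to 0.31). Per kb of exon, Cox6b2 thus made up 23.1%, 15.5% and 21.5% of the normalized counts of the pair in TKO samples (20.01% ± 4.01, SD, n = 3), against 3.75%, 3.81% and 2.65% in THC samples (3.41% ± 0.653, SD, n = 3). Without division by exon length, the share was 28.1% ± 5.12 in TKO and 5.23% ± 0.986 in THC samples (SD, n = 3). No 50-base stretch of Cox6b2 occurs in a transcript of another gene. Cox7a2, the isoform of subunit VIIa found in most tissues, had 2948, 4443 and 3385 counts in TKO samples and 2231, 2590 and 2932 in THC samples, where the lowest TKO sample was just above the highest THC sample. Its log2 change was 0.46 (SE 0.14, adjusted p = 0.0240). This call was lost without TKO 1, TKO 2, THC 1 or THC 2 (adjusted p = 0.0674, 0.131, 0.0698 and 0.0861), with the November samples alone and without the batch term. Cox4i1, the isoform of subunit IV found in most tissues, had 4505, 6194 and 5324 counts in TKO samples and 4680, 5663 and 5437 in THC samples (log2 change 0.01). Cox7b just missed the threshold (log2 change -0.36, adjusted p = 0.0641). Apart from Cox6b2, the median over the other 11 nuclear members was 0.02, beside 0.09 over mt-Co1 and mt-Co3.

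The promoters of Cox6b2 and Cox6b1, from RefSeq on GRCm38.p6 (250 bases before to 50 after the start of transcription, minus strand, 5′ to 3′), are shown because Cox6b2 had the largest difference of any subunit and its paired isoform had none that passed the test. Capitals mark the CCAAT box (CCAAT, or ATTGG on the other strand) and the core of the site for GABPA and other ETS factors (CCGGAAG, or CTTCCGG on the other strand). The Cox6b2 window is chr7:4753045-4753344 and the Cox6b1 window chr7:30626065-30626364.
Cox6b2: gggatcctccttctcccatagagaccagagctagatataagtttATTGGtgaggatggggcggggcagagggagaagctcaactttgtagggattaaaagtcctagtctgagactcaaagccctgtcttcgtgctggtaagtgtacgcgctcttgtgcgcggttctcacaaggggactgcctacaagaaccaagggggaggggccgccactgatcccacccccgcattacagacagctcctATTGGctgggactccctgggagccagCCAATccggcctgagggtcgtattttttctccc
Cox6b1: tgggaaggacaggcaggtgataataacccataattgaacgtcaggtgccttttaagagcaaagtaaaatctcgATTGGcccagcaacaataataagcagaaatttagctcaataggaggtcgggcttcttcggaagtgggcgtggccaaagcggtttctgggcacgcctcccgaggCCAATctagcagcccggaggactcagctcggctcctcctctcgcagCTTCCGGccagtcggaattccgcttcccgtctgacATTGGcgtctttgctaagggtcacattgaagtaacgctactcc
Each has 3 CCAAT boxes, Cox6b1 has 1 ETS core, and neither has an E2F core (TTTGGCGC or TTTCCCGC) or an NRF1 core in this window on either strand. A match is a description of the letters and not a binding site.

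The promoters of Sdha (chr13:74350191-74350490) and Ndufs8 (chr19:3912725-3913024), both on the minus strand, are shown as examples of genes that fell in complexes II and I and have motifs of the regulators best known for respiratory genes, NRF1 and GABPA. Ndufb10, which also fell, has an NRF1 core too and is not shown. Of the other nuclear subunits that fell, Ndufs7 and Ndufv3 had neither an NRF1 nor an ETS core, and none was found for Ndufs1. NRF1 cores (GCGCANGC, or GCNTGCGC on the other strand), ETS cores and CCAAT boxes are in capitals.
Sdha: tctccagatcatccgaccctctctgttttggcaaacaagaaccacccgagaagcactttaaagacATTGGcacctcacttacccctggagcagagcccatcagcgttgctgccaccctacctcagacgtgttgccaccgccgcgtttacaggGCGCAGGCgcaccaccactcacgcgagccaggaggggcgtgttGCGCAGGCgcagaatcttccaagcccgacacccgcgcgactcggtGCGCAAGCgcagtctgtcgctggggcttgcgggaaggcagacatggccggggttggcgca
Ndufs8: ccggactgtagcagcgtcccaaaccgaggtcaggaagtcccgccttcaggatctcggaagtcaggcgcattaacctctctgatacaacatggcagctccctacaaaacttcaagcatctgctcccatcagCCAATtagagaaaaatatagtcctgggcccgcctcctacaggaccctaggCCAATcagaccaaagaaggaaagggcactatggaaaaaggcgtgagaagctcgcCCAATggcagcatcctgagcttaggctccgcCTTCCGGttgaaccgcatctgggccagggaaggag
Sdha has 3 NRF1 cores and 1 CCAAT box, and Ndufs8 has 3 CCAAT boxes and 1 ETS core. Of the 77 nuclear subunits, 65 matched the promoter table by symbol. The NRF1 core was in the promoters of 23 of the 65 (35.4%), against 11.2% of 27025 genes, and the ETS core in 17 (26.2%), against 9.93%. The YY1 core (AAGATGGC or GCCATCTT) was in 10 (15.4%), against 3.19%. An E2F core was in 2 (3.08%), Cox5a and Cox8a, against 1.80%, and the CCAAT box in 28 (43.1%), against 41.1%. Both genes with an E2F core had values that overlapped between the genotypes (log2 change -0.04 for Cox5a and -0.01 for Cox8a).

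Complex V gave no call among its 17 nuclear members, with 1 at an unadjusted p under 0.05 and none in the authors' deposited table. Atp5b, the beta subunit named above, had 19599, 21378 and 18864 normalized counts in TKO samples and 19558, 20991 and 23110 in THC samples (log2 change -0.09, SE 0.17). Atp5d, the delta subunit of the F1 part, had 1019, 1204 and 960 counts in TKO samples and 1247, 1318 and 1305 in THC samples, without overlap (log2 change -0.29, adjusted p = 0.12, limma). Atp5e, the epsilon subunit of F1, had a log2 change of 0.31 (adjusted p = 0.134). The genes of the c-ring, Atp5g1, Atp5g2 and Atp5g3, encode the same mature protein. Their log2 changes were -0.14, 0.32 and -0.07, and Atp5g2 had 788, 1400 and 1065 counts in TKO samples and 783, 830 and 929 in THC samples (adjusted p = 0.147). Atp5k, a subunit of the membrane part, had a log2 change of 0.25 (adjusted p = 0.292). The median was -0.09 over the 5 F1 subunits and 0.02 over the 12 of the membrane part and stalk.

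**Figure D4:**
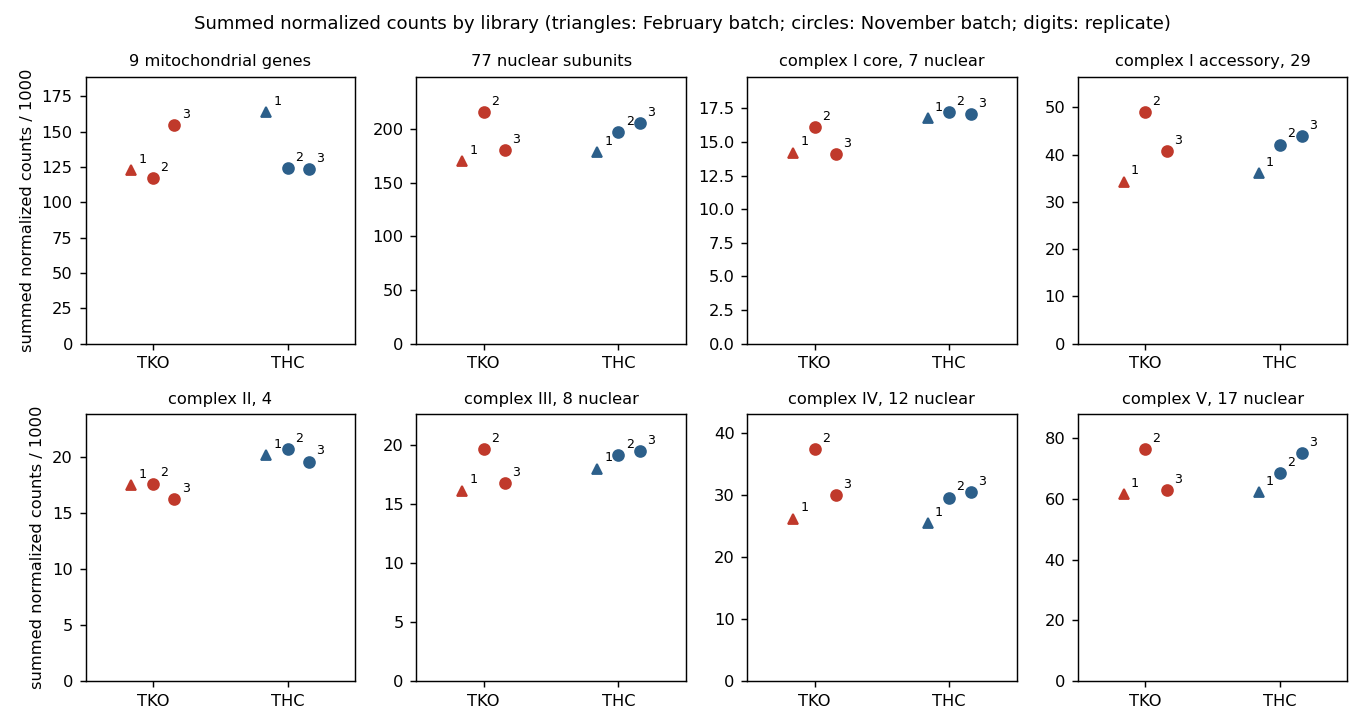
Summed normalized counts divided by 1000 (vertical axes from 0) of the mitochondrial and nuclear members and of the nuclear members of each complex in each library, with TKO left of THC; digits give the replicate, triangles the February and circles the November batch. The sums of the complex I core (14065 to 16101 in TKO, 16750 to 17233 in THC samples) and of complex II do not overlap between the genotypes, and TKO 2 is the highest library in most nuclear panels.

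The members Ndufa12-ps and Ndufb1-ps were not counted as subunits because of their symbols. The symbol Ndufa12-ps stands for a row that GENCODE M21 names Gm15920, a processed pseudogene of Ndufa12 (chr5:130188395-130188796, plus strand). It had 647, 609 and 516 normalized counts in TKO samples and 312, 14.2 and 10.1 in THC samples. THC 1 was more than 10-fold above the other THC samples and still below every TKO sample. The log2 change was 3.97 (SE 0.64, limma adjusted p = 0.000669). The February difference was 1.05 and the November difference 5.44. Of its 50-base stretches, 78.8% also occur in Ndufa12, which had 1110, 1704 and 1563 counts in TKO samples and 1235, 1908 and 1668 in THC samples (log2 change -0.14, adjusted p = 0.446, limma), so the division of reads between them is uncertain. The row also overlaps the gene Rabgef1 on the same strand, and the part of reads from Rabgef1 was not tested. Ndufb1-ps had a log2 change of 0.32 (adjusted p = 0.256, limma). GENCODE M21 does not type this row as a processed pseudogene but as a bidirectional promoter lncRNA. Of its 50-base stretches, 8.26% occur in another gene, Cpsf2. Whether the row is the gene of the Ndufb1 subunit was not settled here, and the counts of nuclear and complex I subunits leave it out.

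The symbols just below the mean of 100 were mt-Co2 (90.2), Ndufa4l2 (88.4) and Cox4i2 (78.1), and just above it were mt-Atp6 (108), Ndufaf8 (153) and mt-Co3 (171). Ndufa4l2, a hypoxia-induced relative of Ndufa4, had 34.2, 21.5 and 60.8 normalized counts in TKO samples and 139, 162 and 112 in THC samples (log2 change -1.91, adjusted p = 0.00254, limma). Cox4i2, the isoform of subunit IV known from lung and from oxygen sensing, had 46.8, 69.9 and 36.7 counts in TKO samples and 80.2, 154 and 80.8 in THC samples (log2 change -1.003, adjusted p = 0.0497). Endothelial and mural markers moved with both, with 5 of 7 lower and the sums given above, and their part in these values was not tested. Cox7a1, the heart and muscle isoform of subunit VIIa, had 38.1, 44.1 and 49.3 counts in TKO samples and 11.03, 18.9 and 24.2 in THC samples (log2 change 1.29, adjusted p = 0.0250). Ndufa4 itself had a log2 change of 0.02. Cox6a2 and Cox8b, further muscle isoforms, had means of 2.58 and 0.314 normalized counts and were not tested.

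Genes that act on the same pathway were described from lists of known members. The counts that follow stand beside 14.3% higher and 13.6% lower over all genes tested, and 32.9% called in either direction among genes with a mean of at least 100. Of those 11905 genes, 1949 rose and 1963 fell. The regulators that rose lay above both shares, each time a small number of genes. So did the genes listed for the tricarboxylic acid cycle and pyruvate entry that fell. The carrier genes that fell lay above the share of all genes tested, but not above that of the 11905. Of 39 further assembly factors tested, 1 rose and 3 fell (median -0.08). Cox19, a copper-handling factor for complex IV, had 516, 657 and 532 counts in TKO samples and 795, 793 and 855 in THC samples (log2 change -0.53, adjusted p = 0.0141, limma). Higd1a, a small partner of complex IV, had 1635, 1855 and 1670 counts in TKO samples and 1190, 1208 and 1375 in THC samples (log2 change 0.45, adjusted p = 0.0153). For mitochondrial DNA maintenance and transcription, 4 of 28 genes rose, the same share as over all genes, and none fell (median -0.05). Mgme1, an exonuclease of mitochondrial DNA replication, had 843, 975 and 896 counts in TKO samples and 491, 360 and 469 in THC samples (log2 change 1.05), and Fastkd3, which acts on mitochondrial mRNA, had a log2 change of 0.62. Tfam, which packages and transcribes mitochondrial DNA, had 984, 1251 and 1087 counts in TKO samples and 693, 808 and 908 in THC samples (log2 change 0.46, adjusted p = 0.0173), and Polg, the mitochondrial DNA polymerase, also rose.

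Of 18 regulators of respiratory genes in the nucleus, 5 rose and 2 fell (median 0.11). Myc, a transcription factor of growth genes, had 953, 493 and 593 counts in TKO samples and 177, 127 and 78.8 in THC samples (log2 change 2.42), and Nfe2l2, a regulator of antioxidant genes, rose by 0.71 on the log2 scale. The falls were Ppara and Esrra, nuclear receptors of energy metabolism genes, with log2 changes of -1.42 and -0.71. Of 25 electron carrier and exchange genes, 1 rose and 4 fell (median -0.08). Slc25a4, an ADP/ATP carrier of the inner membrane, had 4797, 5339 and 4830 counts in TKO samples and 8434, 8730 and 8620 in THC samples (log2 change -0.79, adjusted p = 0.000714, limma), and Ucp2, an inner-membrane carrier, had 1489, 1297 and 1035 counts in TKO samples and 420, 735 and 534 in THC samples (log2 change 1.20). Of 18 genes listed for the tricarboxylic acid cycle and the entry of pyruvate into it, none rose and 4 fell (median -0.15). Pdha1, a subunit of pyruvate dehydrogenase, had 2581, 2537 and 2237 counts in TKO samples and 4077, 3841 and 3433 in THC samples (log2 change -0.62).

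The log2 change of the nuclear subunits, with its sign, was described against their exon length. Over the 77 nuclear subunits, Spearman's rho between the log2 change and the exon length was -0.37 (-0.25 in February and -0.39 in November), and over 11899 genes with a mean of at least 100 it was -0.01. These values are across genes of the same 6 libraries, which are not independent replicates. The 7 core subunits of complex I had a median exon length of 2178 bases and the 29 accessory subunits 1251 bases, and the part of length in their difference was not tested.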

How the data were processed

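RNA-seq was done on 6 samples, each a pool of several mice, with the SMART-Seq v4 and Nextera XT kits per the labels' protocols, a chemistry that does not keep the strand. Samples of a genotype are biological replicates per the series text. HISAT2, Subread's featureCounts and DESeq2, without versions, and the build GRCm38 are named in the submitters' processing notes. The authors' deposited table holds a normalized count per gene and sample, a signal scaled by 1 factor per sample, and per the file headers a log2 fold change, a Wald score and p-values. Every deposited value was a whole multiple of a step per column, within 0.001, for 100% of values. Reads per library were inferred from these steps. As the steps are close to 1, the totals are an inference rather than deposited counts, and no test used them.

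Genes with a normalized count of at least 10 in 3 samples were tested on log2(value + 1) with limma (version 3.58.1, R 4.3.3) with a trend in the prior variance and terms for batch and genotype, which left 3 residual and 8.90 prior degrees of freedom. All 97 members passed this filter. Fold changes on this scale understate the change of low genes. p-values were adjusted by Benjamini-Hochberg over 17278 genes. The test was run on simulated data without a batch effect, with changes of 1.5-fold or more. That check does not cover the members that fell, which differed by less than 1.5-fold. A normalized signal rather than counts was found, so limma was used. The members, lists and tests were chosen with earlier results of these data known. Exon lengths (all annotated exons of a gene joined) and coordinates were those of GENCODE M21 (GRCm38), and promoters those of RefSeq. Named were all mitochondrial genes, per complex the 3 nuclear members with the smallest adjusted p and the most abundant one, all of complex II, isoform pairs, members near the mean of 100 and, per pathway list, the 2 called genes with the smallest adjusted p. Ndufs3, Ndufv1, Ndufv2, Ndufa12, Cox5a, Ppara, Esrra, Tfam, Polg and the genes that just missed the threshold were added after their values were seen. Results for 2 genes of this rule are not reported here.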

Additional observations from a re-analysis of the deposited data

How the results depend on the processing

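The number of genes called over the whole table stayed within 1.5 times of the 4814 reported under all alternatives (3510 to 4981), and both medians kept within the replicate spread. The number of members that fell, 7, was 3 with no filter on low values, 3 without the batch term, 3 with the replicate block (which also ended the call of Cox7a2), 0 with the November samples only, 11 with quantile normalization, and 0 to 5 when 1 replicate was left out. The number that rose, 3, was 1 among members with a mean of at least 1000. Leaving out 1 sample leaves 2 residual degrees of freedom. Log2 changes near 0 changed sign in mt-Cytb (0.020 in November), mt-Nd1 (-0.0059 when scaled to the total) and Cox4i1 (-0.032 with quantile normalization). With 1 replicate left out they ran from -0.33 to 0.020 for mt-Cytb, -0.16 to 0.19 for mt-Co1, -0.043 to 0.37 for mt-Co3, -0.13 to 0.18 for mt-Nd1, -0.20 to 0.24 for mt-Nd5, -0.036 to 0.36 for mt-Nd6 and -0.058 to 0.067 for Cox4i1. The cause was not tested. Samples with the same number correlated in their deviations at 0.23 (number 1, February in both genotypes), -0.11 and 0.14. Those with unlike numbers correlated at -0.28 to 0.18. The main fit did not pair samples by number, and 3 samples per genotype cannot settle whether the numbers pair them. The authors' deposited table called 3 members higher and 6 lower. Count tests and TMM scaling, planned for count data, were not run. Quantile normalization, total scaling and the 2 alternatives that leave out pseudogene symbols or mitochondrial genes with nuclear copies were chosen after seeing the data.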
